A study of Mus musculus with 27 samples.

Results

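The comparison described here sets adipocytes exposed to rosiglitazone for 2 h against adipocytes that received no treatment, across all genes on the array. It was formed by taking the 3 arrays labelled as adipocytes with rosiglitazone for 2 h and the 3 arrays labelled as adipocytes alone, 6 of the 27 arrays of the series. The cells were mature adipocytes of the 3T3-L1 line, a mouse fibroblast-like preadipocyte line that becomes fat-laden in culture after a hormone cocktail of dexamethasone, insulin and 3-isobutyl-1-methylxanthine. All groups shared this differentiation course. The untreated group was harvested at time 0, and the treated group received 1 µM rosiglitazone, dissolved in DMSO. Cells given DMSO are mentioned in the design text, yet 0 samples analysed here have a DMSO label, and the drug, its solvent, the handling of the dishes and the 2 h in culture cannot be told apart. The labels do not say whether the 3 samples of a group came from separate cultures, and p-values therefore measure only the spread between these samples. The other 21 arrays, which covered 30 min, 1 h and 6 h to 48 h of the drug, entered the estimate of the spread and the time courses.

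Rosiglitazone is a thiazolidinedione, an insulin-sensitising drug that binds PPARγ. This nuclear receptor pairs with a retinoid X receptor, sits on DNA at direct repeats of a short core site, and on binding a ligand exchanges corepressors for coactivators. In fat cells it drives genes of lipid uptake, lipid droplets and triglyceride storage, and it is needed both to form and to keep the adipocyte. Early changes after a ligand include direct targets as well as genes whose messengers are short-lived, such as immediate early transcription factors and feedback inhibitors of growth factor signalling.

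Values are log2 intensities, in which a difference of 1 is a 2-fold change, and each gene's error is the moderated standard error (SE) of the difference between groups of 3 arrays. The 6 arrays were alike as wholes, with medians from 4.08 to 4.11. Markers of adipocytes were high in every array: the mean level of the 12 markers ran from 11.16 to 11.21 in untreated arrays and from 11.19 to 11.24 at 2 h. Among the 12, Cebpa was called higher and Pparg lower, and the other 10 were not called. The mean of 10 preadipocyte or fibroblast markers was 8.54 to 8.57 untreated and 8.45 to 8.51 at 2 h, and 1 of them, Pdgfra, named after its values were seen, was called lower, a call that ended without the third 2 h array (adjusted p 0.0937). Macrophage markers averaged 3.58 to 3.64 and 3.51 to 3.56, below the array medians, and markers of endothelium and skeletal muscle averaged 3.13 to 3.24 and 3.98 to 4.08 untreated and 3.19 to 3.24 and 3.98 to 4.04 at 2 h. The part of these small shifts in the results was not tested. In bulk RNA, fewer cells of a type and less RNA per cell cannot be told apart.

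After 2 h, 571 genes were higher and 539 lower at an adjusted p below 0.05, the threshold for a call throughout. They made up 5.91% of the 18781 genes tested, with 3.04% called higher and 2.87% called lower. These shares are the background for the counts of every list below. The lists and their members were chosen with earlier results of these data known. Their counts and rankings therefore describe these arrays and are not independent tests. Calls were more frequent among bright genes, with 947 above the median mean level of 4.76 and 163 at or below it. List counts were not matched for level. The 3 arrays of a group lay wholly beyond the 3 of the other for 24.7% of all genes, and for 1103 of the 1110 called genes. Most changes were small: the median size of a called change was 0.38, against a median SE of 0.088 over all genes. Only 93 genes rose and 107 fell by 1.5-fold or more, 15 rose and 20 fell by 2-fold or more, and 1 rose and 4 fell by 3-fold or more. The median change of all genes was -0.0045. Leaving out the second 2 h array gave 717 calls and leaving out the third gave 700, against 1110 with all arrays. Where a call is said to end without an array, that array is the one whose loss gave the largest adjusted p, and others may end it too. Of the 162 named genes called, 42 lost the call in at least 1 of the 6 fits without 1 array.

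**Figure D1:**
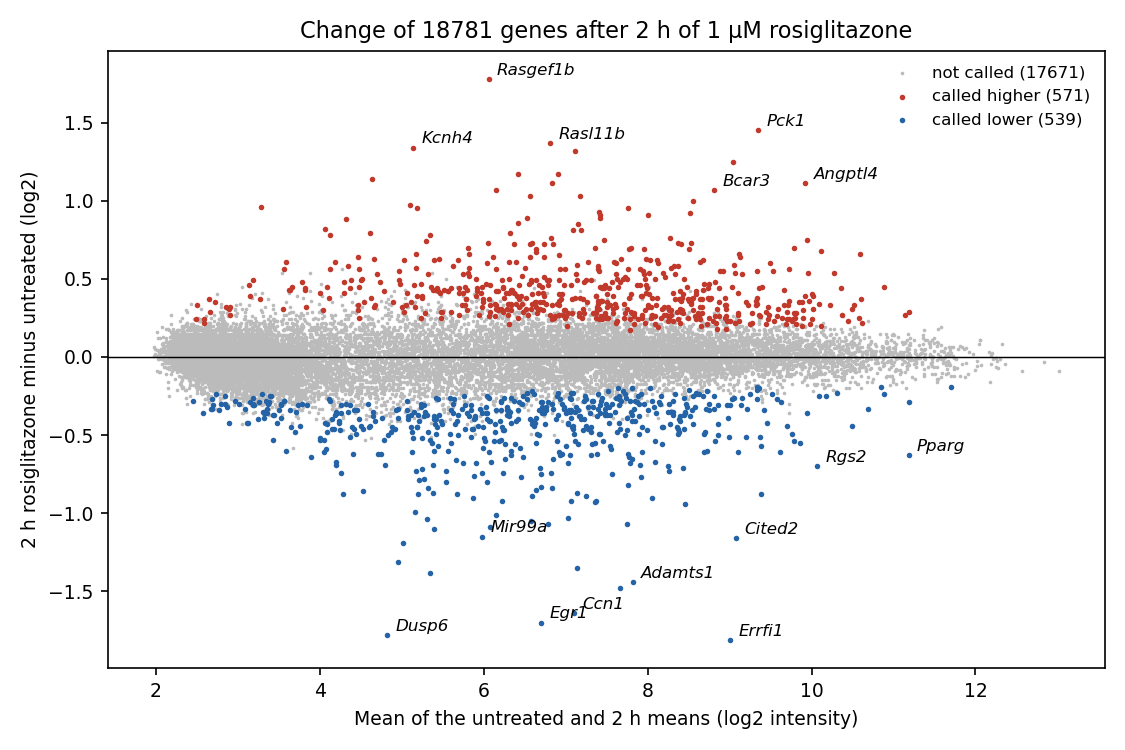
Each point is 1 of 18781 genes, with its mean level (log2 intensity) on the horizontal axis and its change after 2 h (log2, treated minus untreated) on the vertical axis. Red points are the 571 genes called higher, blue points the 539 called lower, and grey points those not called. Errfi1 and Dusp6 reach lower than any other gene and Rasgef1b higher.

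The gene that rose most was Rasgef1b, which encodes an exchange factor that loads small GTPases of the Ras family with GTP. It read 5.03, 5.23 and 5.24 in the untreated arrays and 6.98, 6.96 and 6.92 at 2 h. All treated arrays lay far above all untreated ones, and the change was 1.78 (SE 0.094, adjusted p 3.25e-12), or 3.44-fold. Pck1, the enzyme that commits oxaloacetate to glyceroneogenesis in fat cells, followed with a change of 1.45. Its untreated arrays read 8.43, 8.78 and 8.64 and its 2 h arrays 10.05, 9.91 and 10.23. Rasl11b, a small GTPase of the Ras-like family, went from 6.14, 6.15 and 6.10 to 7.65, 7.63 and 7.21. The lowest treated array of Rasl11b was still more than 1 unit above the highest untreated array, and the change was 1.37 (SE 0.11, adjusted p 4.12e-09). Kcnh4, a voltage-gated potassium channel, rose from a dim 4.32, 4.65 and 4.43 to 6.04, 5.65 and 5.74, a change of 1.34 (SE 0.17).

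The 4 genes described next fell strongly and had promoters in the reference. Errfi1 encodes an inhibitor that binds the EGF receptor and dampens its kinase, and it read 9.90, 9.93 and 9.92 untreated and 8.26, 8.05 and 8.01 at 2 h. The groups of this bright transcript did not overlap, and its change was -1.81, with an SE of 0.095 and an adjusted p of 3.25e-12. Dusp6, a phosphatase that removes the activating phosphates of ERK kinases, read 5.50, 5.73 and 5.90 before and 3.97, 3.88 and 3.96 after, where it was close to the median of the arrays. Ccn1, a secreted matrix-associated protein and a known target of YAP, read 7.66, 8.05 and 8.04 and then 6.25, 6.16 and 6.42. Tent5a, a non-canonical poly(A) polymerase, read 8.62, 8.35 and 8.24 and then 7.04, 6.99 and 6.74. The changes of these 3 genes were -1.78, -1.64 and -1.48, with SEs of 0.17, 0.25 and 0.14, and their arrays did not overlap.

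The promoters of these 8 genes are printed because they stand at the ends of the response and share neither a direction nor a class. Each line gives the 250 bases before the start of the RefSeq transcript (GRCm38.p6), 5′ to 3′ in the sense of the gene, and for the genes with several listed starts, Errfi1 and Tent5a, the first listed one. The 4 genes that rose lie at chr5:99252928-99253177 on the minus strand for Rasgef1b, chr2:173152823-173153072 on the plus strand for Pck1, chr5:74195076-74195325 on the plus strand for Rasl11b and chr11:100759779-100760028 on the minus strand for Kcnh4. The 4 that fell lie at chr4:150853546-150853795 (plus) for Errfi1, chr10:99262981-99263230 (plus) for Dusp6, chr3:145649986-145650235 (minus) for Ccn1 and chr9:85327151-85327400 (minus) for Tent5a. Capitals mark matches, on either strand, to any of the motifs named after the sequences.
Rasgef1b: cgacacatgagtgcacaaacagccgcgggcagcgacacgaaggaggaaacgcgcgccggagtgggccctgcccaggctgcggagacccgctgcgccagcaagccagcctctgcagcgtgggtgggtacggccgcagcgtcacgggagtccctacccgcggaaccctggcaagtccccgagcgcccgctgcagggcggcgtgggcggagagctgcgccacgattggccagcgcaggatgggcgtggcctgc
Pck1: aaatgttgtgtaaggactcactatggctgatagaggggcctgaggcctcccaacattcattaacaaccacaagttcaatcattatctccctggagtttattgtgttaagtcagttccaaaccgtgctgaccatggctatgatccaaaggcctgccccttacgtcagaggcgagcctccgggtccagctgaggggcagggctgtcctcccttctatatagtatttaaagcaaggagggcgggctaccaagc
Rasl11b: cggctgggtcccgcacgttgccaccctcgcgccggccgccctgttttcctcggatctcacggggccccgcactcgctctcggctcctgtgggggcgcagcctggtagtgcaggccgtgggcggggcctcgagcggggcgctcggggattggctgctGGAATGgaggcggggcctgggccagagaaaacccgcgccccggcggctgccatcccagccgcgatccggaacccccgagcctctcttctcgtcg
Kcnh4: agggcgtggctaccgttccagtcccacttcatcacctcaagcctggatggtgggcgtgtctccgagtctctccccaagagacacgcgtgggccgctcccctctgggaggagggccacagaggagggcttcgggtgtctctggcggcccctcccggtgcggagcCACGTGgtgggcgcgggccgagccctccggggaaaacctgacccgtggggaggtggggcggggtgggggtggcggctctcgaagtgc
Errfi1: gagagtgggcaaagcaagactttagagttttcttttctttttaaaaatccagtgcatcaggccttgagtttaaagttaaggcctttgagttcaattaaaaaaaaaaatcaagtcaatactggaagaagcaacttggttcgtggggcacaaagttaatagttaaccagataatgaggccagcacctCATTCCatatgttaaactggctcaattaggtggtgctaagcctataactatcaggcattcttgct
Dusp6: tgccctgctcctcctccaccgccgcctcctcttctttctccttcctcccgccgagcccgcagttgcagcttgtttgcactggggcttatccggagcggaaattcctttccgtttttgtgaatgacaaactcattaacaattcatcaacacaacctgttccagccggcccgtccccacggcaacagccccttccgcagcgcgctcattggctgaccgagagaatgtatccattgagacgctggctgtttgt
Ccn1: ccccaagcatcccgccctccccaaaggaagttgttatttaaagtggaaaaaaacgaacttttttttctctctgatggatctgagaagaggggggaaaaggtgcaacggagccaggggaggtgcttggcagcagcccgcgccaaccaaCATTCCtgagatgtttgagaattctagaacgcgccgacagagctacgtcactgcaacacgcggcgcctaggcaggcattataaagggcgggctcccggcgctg
Tent5a: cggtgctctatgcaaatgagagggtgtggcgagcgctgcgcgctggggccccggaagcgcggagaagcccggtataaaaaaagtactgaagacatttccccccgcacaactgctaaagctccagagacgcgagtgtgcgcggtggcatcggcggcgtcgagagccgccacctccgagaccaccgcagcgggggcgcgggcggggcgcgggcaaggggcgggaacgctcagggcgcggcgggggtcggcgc

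The motifs searched were the nuclear receptor core site AGGTCA, a direct repeat of it with 1 base between the copies, the AP-1 site TGANTCA, the E-box CACGTG, the TEAD site GGAATG and the CArG box of serum response factor. Of the 8 promoters, Kcnh4 held an E-box, Rasl11b, Errfi1 and Ccn1 held a TEAD site, and the others held none of these letters in this window. The repeat contains the core site, and the other motifs do not contain each other. Promoter entries existed for 14723 of the 18781 genes, 463 of those called higher and 417 of those called lower. The core site was in 12.2% of all promoters, 13.6% of those of genes called higher and 10.1% of those called lower, and the direct repeat was in 0.0408% of all and in 0 of either called set. The AP-1 site was in 5.94% of all, 4.54% of higher and 3.12% of lower genes, and the E-box in 7.09%, 10.2% and 7.91%. The TEAD site was in 11.4%, 9.29% and 8.63%, and the CArG box in 1.27%, 0.648% and 1.92%. A match describes letters and does not mark a binding site.

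**Figure D2:**
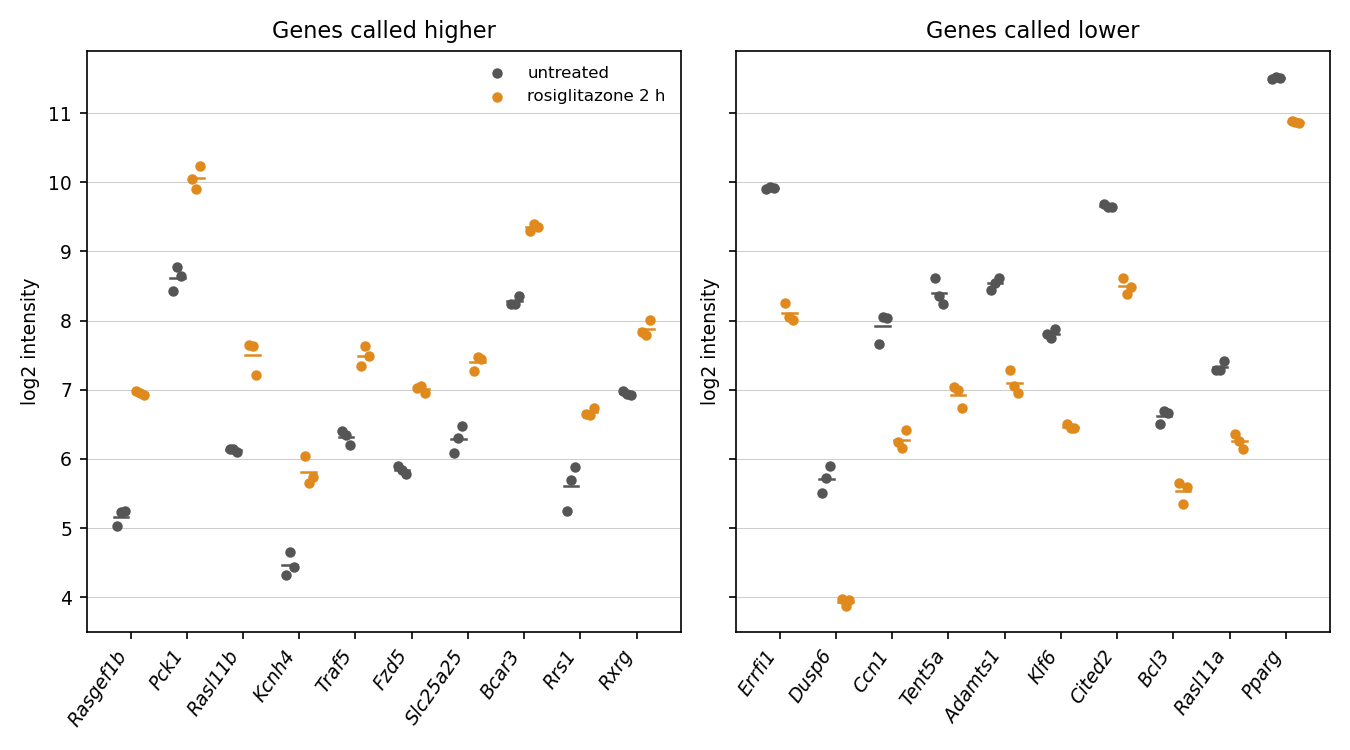
Log2 intensity of 10 genes called higher (left) and 10 called lower (right), with a point for each of the 3 untreated arrays (grey) and the 3 arrays at 2 h (orange) and a bar for each mean. The groups overlap for none of the 20 genes, and Pparg shows the tightest groups, at 11.49 to 11.52 and 10.86 to 10.88.

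Beyond these extremes, the genes that rose by about 1 unit or more formed a mixed set of signalling, transport and transcription factors. Traf5, an adaptor of TNF receptors, read 6.41, 6.35 and 6.20 untreated and 7.34, 7.63 and 7.49 at 2 h, a change of 1.17 (SE 0.094, adjusted p 5.79e-09). Slc25a25, a mitochondrial carrier that exchanges ATP-magnesium for phosphate, read 6.08, 6.30 and 6.47 and then 7.27, 7.48 and 7.44, a change of 1.11 (SE 0.11). Bcar3 and Sh2d3c encode related adaptors of the same SH2-domain family, and both rose. Bcar3 went from 8.24, 8.24 and 8.36 to 9.30, 9.39 and 9.35, and its change of 1.07 had an SE of only 0.074. Sh2d3c went from 6.55, 6.64 and 6.81 to 7.67, 7.58 and 7.84, a change of 1.03 (SE 0.11). Grhl1, a transcription factor of the grainyhead family known from epithelia, rose by 1.03 from 6.20, 5.90 and 6.05 to 7.14, 7.07 and 7.04. In each of these 5 genes the lowest treated array was above the highest untreated one.

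Of 29 measured PPARγ targets of lipid storage and handling, 11 were called higher and 0 lower, against 3.04% higher among all genes, and 26 of the 29 changes were above 0. The median change of the list was 0.15. Beside Pck1 they included Angptl4, a secreted inhibitor of lipoprotein lipase, at 1.11 (SE 0.073), and Ucp3, a mitochondrial carrier, at 0.89 (SE 0.10). Pdk4, the kinase that inhibits pyruvate dehydrogenase, was at 0.69 (SE 0.11). Aqp7, the glycerol channel of fat cells, read 10.18, 10.18 and 10.06 and then 10.50, 10.52 and 10.70, a change of 0.44 (SE 0.074, adjusted p 0.000301). Plin4, a lipid droplet coat protein, read 10.44, 10.44 and 10.39 and then 10.77, 10.77 and 10.84, a change of 0.37 (SE 0.063). For both, the shift was small and the groups did not overlap, and both calls ended in a fit without replicate 3 of every group. The other 5 called members, named after their values were seen, were Olr1, Arxes1, Ehhadh, Hilpda and Agpat2, with changes from 0.29 to 0.79.

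Several well-known members of that list did not pass the test at 2 h. The fatty acid carrier Fabp4 went from a mean of 11.45 to 11.63 (change 0.18, SE 0.062, adjusted p 0.0877), the fatty acid transporter Cd36 from 10.93 to 11.08, and the droplet coat protein Plin1 from 11.56 to 11.60. Lpl, the lipase that frees fatty acids from circulating lipoproteins, stood at 12.23 and 12.21. Without the first untreated array 6 of the 29 targets were called, and 6 were called when the 30 min arrays served as the control in place of time 0. Pdk4 was among those not called against 30 min.

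**Figure D3:**
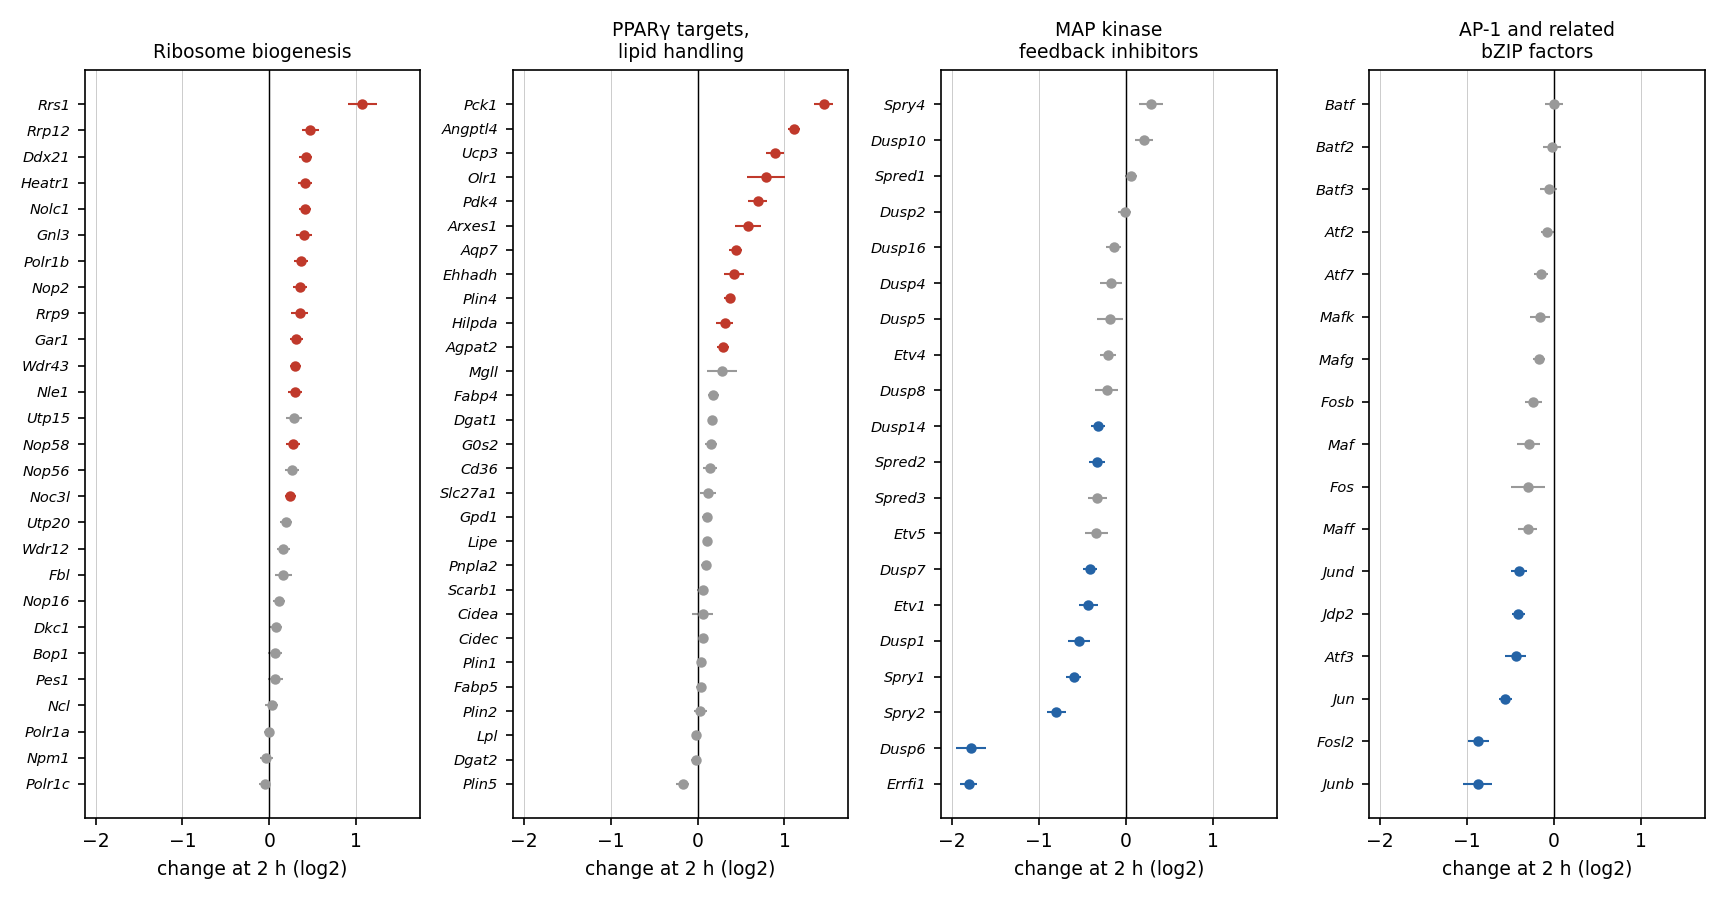
Change at 2 h (log2, treated minus untreated) of every measured member of 4 gene lists, as a point with its SE, in red where called higher, blue where called lower and grey where not called. In ribosome biogenesis 14 of 27 members and among PPARγ targets 11 of 29 are red, and among feedback inhibitors of MAP kinases 9 of 20 and among AP-1 factors 6 of 17 are blue.

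Genes of ribosome biogenesis were the list with the largest share of calls in 1 direction. These genes serve the nucleolus, where RNA polymerase I makes ribosomal RNA and assembly factors cut and fold it into subunits. Of 27 measured members, 14 were called higher and 0 lower, against 3.04% and 2.87% of all genes. Changes were above 0 in 24 members, with a median of 0.27. Rrs1, an assembly factor of the large subunit, read 5.25, 5.70 and 5.88 untreated and 6.65, 6.64 and 6.74 at 2 h, a change of 1.07 (SE 0.17, adjusted p 0.000194). The treated arrays were tight and the untreated ones spread over 0.63 units without reaching them. Nolc1, a nucleolar phosphoprotein that associates with RNA polymerase I, read 7.68, 7.84 and 7.79 and then 8.12, 8.19 and 8.23, a change of 0.41 (SE 0.074). Ddx21, an RNA helicase of the nucleolus, read 8.15, 8.22 and 8.21 and then 8.46, 8.65 and 8.72, a change of 0.42 (SE 0.074). Heatr1, a factor of the small subunit's early assembly, read 6.41, 6.50 and 6.62 and then 6.91, 6.97 and 6.90, with a change of 0.41 (SE 0.08).

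Rrp12, a factor in the export and maturation of subunits, read 5.70, 5.86 and 5.81 and then 6.18, 6.29 and 6.30, and Wdr43, part of the small-subunit processome, read 8.17, 8.07 and 8.11 and then 8.28, 8.49 and 8.48. Their changes were 0.47 (SE 0.1, adjusted p 0.00525) and 0.30 (SE 0.063, adjusted p 0.00325). Called members outside the 6 with the smallest p, named after their values were seen, were Polr1b, Gnl3, Nop2, Rrp9, Gar1, Nle1, Nop58 and Noc3l, from 0.24 to 0.40. Other members, also named after their values were seen, were not called: the nucleolar proteins Npm1 and Ncl stood at 10.40 and 10.36 and at 9.81 and 9.84, while Polr1a, the largest subunit of RNA polymerase I, stood at 7.93 and 7.92. Myc, a transcription factor known to drive this gene class and named after its values were seen, was called lower, from a mean of 8.63 to 8.14 (change -0.48, SE 0.11, adjusted p 0.00871), a call that ended without the second 2 h array (adjusted p 0.062). The count of 14 fell to 8 without the second 2 h array and to 2 in a fit without replicate 2 of every group, while centring each array on its median gave 16.

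The messenger of the drug's own receptor fell. Pparg read 11.49, 11.52 and 11.51 untreated and 10.88, 10.87 and 10.86 at 2 h, a change of -0.63 with an SE of 0.049 (adjusted p 4.41e-09). The partner Rxra stood at 9.54 and 9.56, whereas Rxrg, the retinoid X receptor more restricted in tissue, rose. Rxrg read 6.98, 6.94 and 6.92 and then 7.83, 7.79 and 8.01, a change of 0.93 (SE 0.11, adjusted p 1.67e-06). The retinoic acid receptors Rara and Rarg both fell: Rara from 8.66, 8.85 and 8.81 to 8.44, 8.29 and 8.28, and Rarg from 7.31, 7.23 and 7.14 to 6.72, 6.65 and 6.47, by -0.43 (SE 0.071) and -0.61 (SE 0.09). Neither retinoic acid receptor had arrays that overlapped between groups.

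Among 26 measured nuclear receptors, 2 were called higher and 5 lower, with a median of 0.0011. Nr2f2, an orphan receptor known to restrain adipogenesis, rose by 0.28, Ppard, the PPAR of fatty acid burning, fell by 0.25 on the log2 scale, and Rora, an orphan receptor named after its values were seen, fell by 0.35 (adjusted p 0.0427). The call of Nr2f2 ended without the second untreated array (adjusted p 0.116), as did that of Ppard (adjusted p 0.17), and the count of 5 lower fell to 3 there. The call of Rora ended in each of the 6 fits without 1 array, with an adjusted p of 0.144 without the first untreated array. The glucocorticoid receptor Nr3c1, named after its values were seen, went from 8.73 to 8.41 and was not called (adjusted p 0.0974).

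Adipocyte transcription factors other than nuclear receptors moved both ways, with 7 of 28 called higher, 3 lower and a median of -0.06. Cebpb, an early factor of the adipogenic cascade, read 7.73, 7.86 and 7.82 and then 8.28, 8.46 and 8.52, a change of 0.62 (SE 0.1, adjusted p 0.000219). Its late partner Cebpa, which with PPARγ maintains the adipocyte, rose by 0.39 (SE 0.075) from 9.83, 9.70 and 9.67 to 9.98, 10.15 and 10.24. Tle3, a corepressor of the Groucho family known to favour the white fat programme, read 8.52, 8.62 and 8.63 and then 9.09, 9.06 and 9.04, a change of 0.48 (SE 0.059). Zbtb16, a zinc finger repressor, read 7.85, 7.91 and 7.99 and then 8.50, 8.53 and 8.35, a change of 0.54 (SE 0.08). Zfp467, a zinc finger factor that favours fat over bone formation, went the other way from 6.71, 6.75 and 6.50 to 6.05, 5.93 and 6.10, a change of -0.63 (SE 0.078). Without the first untreated array 4 members were called higher.

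Among 29 coregulators 2 were called in each direction, 6.9% each, against 3.04% higher and 2.87% lower among all genes. The median was 0.021. Ppargc1b, a coactivator of PPARs and of mitochondrial gene expression, read 8.07, 8.17 and 8.26 and then 8.88, 8.88 and 8.91, a change of 0.73 (SE 0.085, adjusted p 2.29e-06), whereas its relative Ppargc1a went from a mean of 6.93 to 6.55 and was not called (adjusted p 0.119). Cited2, which binds the coactivators p300 and CBP, read 9.68, 9.64 and 9.64 and then 8.62, 8.38 and 8.49, a change of -1.16 (SE 0.093, adjusted p 5.12e-09). Med1, the Mediator subunit that contacts PPARγ, stood at 8.50 and 8.54. The calls of Nrip1, a corepressor that rose by 0.33, and of Ncoa6, a coactivator that fell by 0.32, ended without the second untreated array (adjusted p 0.126) and the third 2 h array (adjusted p 0.0724).

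Small GTPases and their regulators were called at 4 of 24 in each direction, with a median of 0.0011. The Ras-like pair of the RASL11 family split: Rasl11b rose as given, while Rasl11a, its relative, read 7.29, 7.29 and 7.41 and then 6.36, 6.26 and 6.14, a change of -1.07 (SE 0.1, adjusted p 8.97e-08). Rasa3, which switches Ras proteins off, rose from 9.41, 9.65 and 9.58 to 9.91, 9.87 and 9.95, by 0.36 (SE 0.062), though it was not called against the 30 min arrays. Rnd3 and Gem, GTPases that act on the cytoskeleton, fell by 0.74 (SE 0.13) and 0.60 (SE 0.094). Their treated arrays, at 5.75 to 5.94 and 4.95 to 5.17, did not reach their untreated ones, at 6.50 to 6.74 and 5.52 to 5.79.

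Of 33 interferon-response genes 3 were called higher and 1 lower, 9.09% and 3.03%, against 3.04% and 2.87% of all genes. The median was -0.023. Usp18, which strips the ubiquitin-like ISG15 from proteins and damps interferon receptors, read 6.33, 6.51 and 6.53 and then 7.57, 7.81 and 7.97, a change of 1.32 (SE 0.13). Irf7, a transcription factor of the interferon pathway, read 5.47, 5.58 and 5.43 and then 6.20, 6.04 and 6.20, a change of 0.66 (SE 0.11, adjusted p 0.000345). Rtp4 rose by 0.44 and Stat2 fell by 0.33, and these calls ended without the first 2 h array (adjusted p 0.0935) and the second (adjusted p 0.054).

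Genes of sugar metabolism moved both ways. Pfkfb3, which makes the activator of phosphofructokinase, read 8.45, 8.34 and 8.46 and then 9.49, 9.65 and 9.86, a change of 1.25 (SE 0.1). Slc16a1, a lactate and pyruvate carrier, read 8.12, 8.03 and 8.08 and then 8.64, 8.69 and 8.65, a change of 0.58 (SE 0.079), while hexokinase Hk2 fell from 9.04, 9.09 and 9.20 to 8.58, 8.64 and 8.62, a change of -0.50 (SE 0.078). Of 22 genes of glycolysis 2 were higher and 2 lower, 9.09% each, against 3.04% and 2.87% of all genes. The median was -0.0027. Slc16a3, another lactate carrier, lost its call (change -0.34) without the second untreated array (adjusted p 0.173).

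Irs2, which couples the insulin receptor to PI3 kinase, read 7.94, 8.16 and 8.05 and then 8.72, 8.80 and 8.79, a change of 0.72 (SE 0.077). Among 31 genes of insulin and PI3 kinase signalling 2 were higher and 5 lower, with a median of -0.083. The pseudokinases Trib1 and Trib2, scaffolds that steer proteins to degradation, both fell: Trib2 from a mean of 5.95 to 4.85, and Trib1 from 5.84, 5.79 and 5.85 to 4.51, 4.66 and 5.20. Their changes were -1.10 (SE 0.13) and -1.04 (SE 0.15), with treated arrays that varied more than untreated ones. Foxo3, a forkhead factor restrained by insulin, fell from 6.75, 6.75 and 6.70 to 6.27, 6.20 and 5.98, a change of -0.58 (SE 0.084, adjusted p 4.26e-05). The glucose transporter Slc2a1 fell by 0.33 (SE 0.068), and the call of the kinase Sgk1 (-0.33) ended without the second 2 h array (adjusted p 0.102). The higher count was 1 in each fit without 1 array.

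Feedback inhibitors of MAP kinase signalling had the largest share of members called lower of the 36 lists, 9 of 20, with 0 higher and a median of -0.32, against 2.87% called lower among all genes. Such inhibitors are induced by ERK and then restrain it, and the list also holds Etv1, an ERK-responsive transcription factor. Beside Errfi1 and Dusp6, the Sprouty proteins Spry2 and Spry1 fell: Spry2 read 5.87, 5.92 and 6.04 and then 5.16, 5.02 and 5.24, and Spry1 read 6.48, 6.59 and 6.80 and then 6.09, 5.90 and 6.09. The changes were -0.80 (SE 0.11) and -0.60 (SE 0.087), and neither gene's groups overlapped. The ERK phosphatase Dusp7 went from 8.64, 8.63 and 8.54 to 8.17, 8.25 and 8.13, a change of -0.41 (SE 0.077). Calls of Dusp1 (-0.54) and of the ERK-responsive factor Etv1 (-0.43) ended without the third untreated array, with adjusted p of 0.106 and 0.0919, and 5 of the 20 were called without it. Spry4, named after its values were seen, had a change of 0.29 and was not called, so the members did not all share a direction.

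AP-1 factors, dimers of Fos, Jun and related proteins that answer growth and stress signals, had 6 of 17 called lower and 0 higher. All 17 changes were below 0 and the median was -0.29, while 15 of 17 were below 0 after centring arrays or further quantile normalization. Fosl2 read 7.56, 7.59 and 7.55 and then 6.77, 6.72 and 6.61, a change of -0.87 (SE 0.12, adjusted p 3.55e-05). Junb read 5.54, 5.55 and 5.83 and then 4.62, 5.03 and 4.62, and Jun read 8.44, 8.41 and 8.53 and then 7.87, 7.89 and 7.93, with changes of -0.88 (SE 0.17) and -0.56 (SE 0.073). Jdp2, a repressor that dimerises with Jun, fell by 0.41 (SE 0.078). Fos itself was dim, at 4.32 and 4.02, and was not called. Calls of Atf3 (-0.44) and Jund (-0.40) ended without the second untreated array, at adjusted p of 0.159 and 0.0592, which left 4.

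Other immediate early genes gave 9 of 23 lower and 1 higher, with a median of -0.25. Egr1 and Egr2, zinc finger factors induced within minutes by serum, fell by 1.70 and 1.31 on the log2 scale (SE 0.3 and 0.21). Egr1 went from a mean of 7.55 to 5.85, and Egr2 from 5.25, 5.59 and 5.99 to 4.12, 4.28 and 4.48. Untreated arrays of both were spread, and the treated arrays lay below that spread. Ier2 changed by -0.86, and Plk2, a stress-induced kinase, read 5.50, 5.52 and 5.95 and then 4.59, 4.69 and 4.73. The GADD45 family, small proteins that bind stress kinases, split. Gadd45a went from 7.90, 7.82 and 7.75 to 7.13, 6.83 and 6.76, a change of -0.92 (SE 0.099), whereas Gadd45g went from 8.26, 7.86 and 8.06 to 8.83, 9.12 and 9.21, a change of 1.00 (SE 0.11, adjusted p 1.36e-06).

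Krüppel-like factors, zinc finger proteins of which several steer adipocyte differentiation, had 6 of 17 called lower and 1 higher, with a median of -0.12. Klf6 read 7.81, 7.75 and 7.88 and then 6.50, 6.44 and 6.44, a change of -1.35 (SE 0.11, adjusted p 6.59e-09). Klf3 fell from 7.65, 7.69 and 7.55 to 7.17, 7.01 and 7.05, by -0.55 (SE 0.078), and Klf13 from 7.24, 7.36 and 7.31 to 6.94, 6.88 and 6.77, by -0.44 (SE 0.076). Klf15, a late adipocyte factor induced by glucocorticoids, fell from 8.65, 8.57 and 8.53 to 8.23, 8.19 and 8.12, by -0.40 (SE 0.07). Klf4 and Klf10 fell by 0.73 (SE 0.15) and 0.38 (SE 0.081). The 6 lower calls were made in each fit without 1 array, and the sole rise, that of Klf11 (0.37), which was named after its values were seen, was not called without the second 2 h array.

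**Figure D4:**
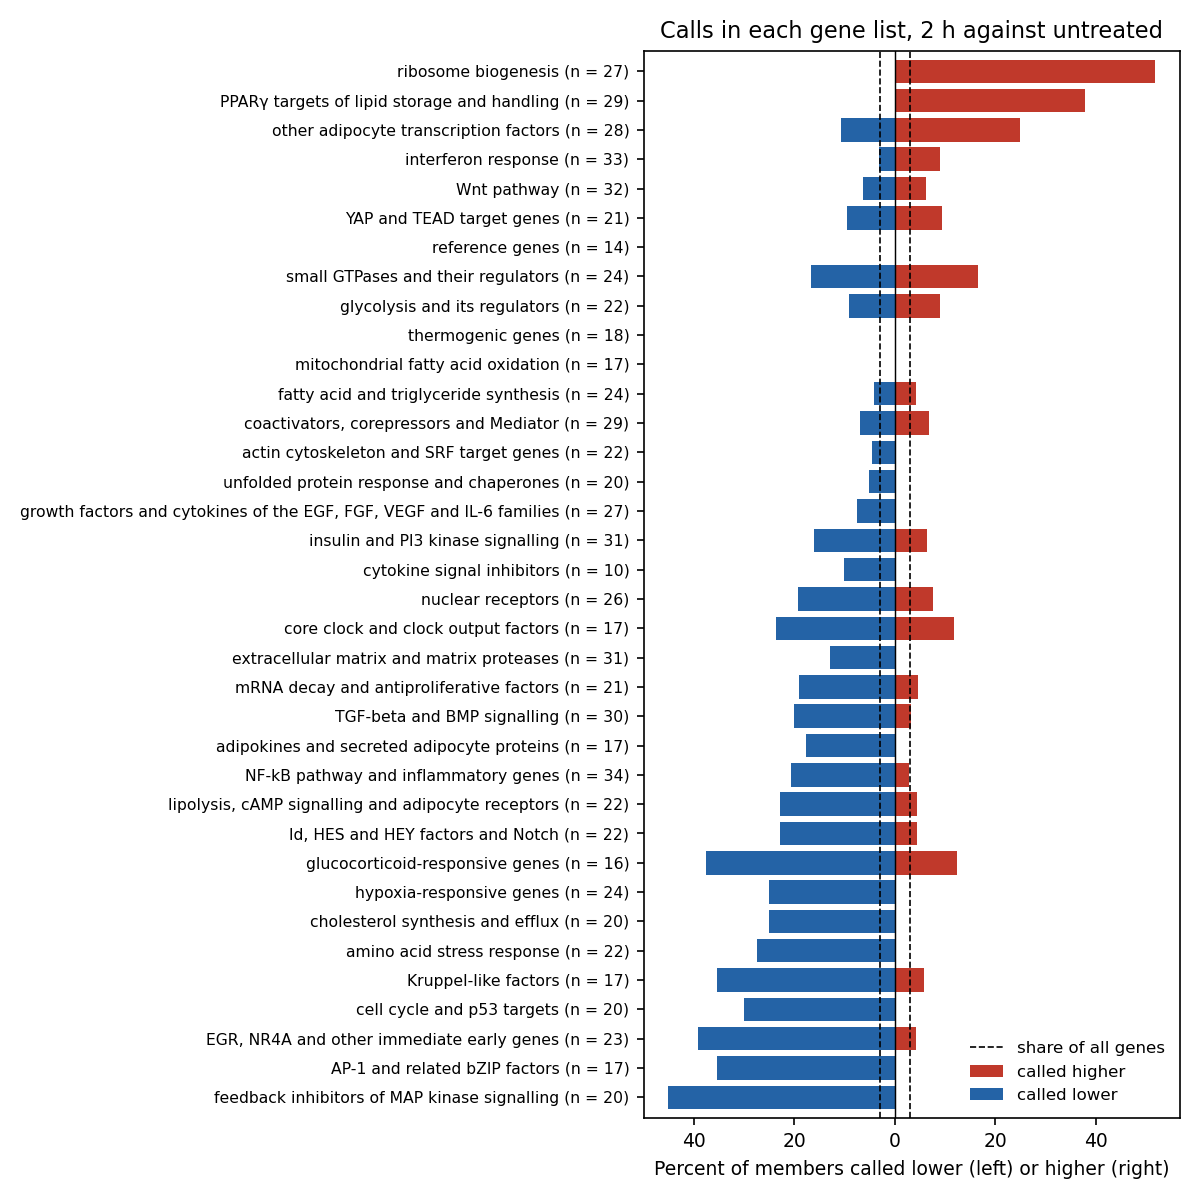
Percent of the measured members of each of 36 gene lists called higher (red, right) or lower (blue, left) at 2 h, with dashed lines at the shares of all genes, 3.04% higher and 2.87% lower. Ribosome biogenesis and PPARγ targets stand at the top with no lower call, and feedback inhibitors of MAP kinases at the bottom with no higher call. The lists were chosen with earlier results of these data known.

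Inflammatory genes of the NF-kB pathway had 7 of 34 lower, 1 higher and a median of -0.19, with 28 changes below 0. The lower count was 3 in a fit without replicate 2 of every group and 12 with array weights. Bcl3, an IkB family protein that works in the nucleus, read 6.50, 6.70 and 6.67 and then 5.65, 5.35 and 5.60, a change of -1.09 (SE 0.13, adjusted p 2.37e-06). Tlr4, the receptor for bacterial lipopolysaccharide, read 7.22, 7.01 and 7.06 and then 6.17, 6.13 and 5.84, a change of -1.05 (SE 0.14), and Rel fell by 0.68 (SE 0.13). The call of Rel ended in the fit without replicate 2 of every group. Tnfaip2 moved against the list, from 7.95, 8.18 and 7.89 to 8.76, 8.75 and 8.70, a change of 0.73 (SE 0.075, adjusted p 3.15e-07). The calls of Tlr2 (-0.62) and Birc3 (-0.49) ended without the first untreated array (adjusted p 0.0659) and the third 2 h array (adjusted p 0.0547).

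TGF-β and BMP signalling had 6 of 30 lower and 1 higher, with a median of -0.054. The inhibitory SMADs split: Smad7, which blocks TGF-β receptors, read 6.01, 5.64 and 5.60 and then 4.92, 4.91 and 4.89, a change of -0.84 (SE 0.16, adjusted p 0.00116), and Smad6, which blocks mainly BMP signals, read 7.04, 7.13 and 7.02 and then 7.57, 7.51 and 7.57, a change of 0.49 (SE 0.073, adjusted p 7.4e-05). Tgif1, a corepressor of SMADs, fell from 7.80, 7.81 and 7.85 to 7.13, 6.81 and 6.72, by -0.93 (SE 0.12). Smad3 (-0.28) and Acvr1 (-0.25) lost their calls without the third 2 h array (adjusted p 0.113 and 0.162) and Inhbb (-0.45) without the second (adjusted p 0.0699), and 3 were called lower without the third.

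In the Wnt pathway 2 of 32 members were higher and 2 lower, 6.25% each, against 3.04% and 2.87% of all genes. The median was -0.071. Fzd5, a Wnt receptor, read 5.90, 5.84 and 5.78 and then 7.03, 7.05 and 6.95, a change of 1.17 (SE 0.083, adjusted p 8.9e-10), whereas Fzd2, another receptor of that family, went from 7.05, 7.18 and 7.07 to 6.95, 6.72 and 6.50, a change of -0.37. The calls of Fzd2 and of the transcription factor Lef1 (-0.33) ended without the third 2 h array (adjusted p 0.2 and 0.253), and that of Tcf7l1 (0.34) without the first untreated array (adjusted p 0.12). Among 21 targets of YAP and TEAD, 2 were higher and 2 lower, 9.52% each, with a median of -0.075. F3, the tissue factor that starts clotting, fell with Ccn1, from 9.68, 9.65 and 9.66 to 9.25, 9.26 and 9.23. Amotl2, an angiomotin that restrains YAP, rose from 8.30, 8.39 and 8.33 to 8.90, 9.02 and 8.93, by 0.61 (SE 0.069), but was not called against the 30 min arrays.

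Of 22 genes of the Id, HES, HEY and Notch group, 5 were lower and 1 higher, with a median of -0.077. Lfng, a glycosyltransferase that modifies Notch, was the firmest, from 8.95, 9.06 and 9.05 to 8.32, 8.43 and 8.52, a change of -0.60 (SE 0.081, adjusted p 1.8e-05). The calls of Id1, Id3, Id4, Hes1 and Jag1 each ended in at least 1 of the fits without 1 array. Id3, an inhibitor of helix-loop-helix factors, was higher by 0.40 at 2 h against time 0 but lower by -0.46 against 30 min, and stood at 0.85 above time 0 at 30 min and at 1.26 at 1 h. Without the first untreated array 2 members were called lower.

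Hypoxia-responsive genes had 6 of 24 lower and 0 higher, with a median of -0.15. Adm, a vasodilator peptide, read 6.22, 5.97 and 5.93 and then 4.84, 4.54 and 4.60, a change of -1.38 (SE 0.17, adjusted p 4.78e-06). Stc1, a secreted glycoprotein, read 6.64, 6.70 and 6.64 and then 5.70, 5.74 and 5.50, a change of -1.01 (SE 0.14), and the histone demethylase Kdm3a and the Myc antagonist Mxi1 fell by 0.49 (SE 0.083) and 0.48 (SE 0.072). Calls of Ddit4 (-0.61) and Ndrg1 (-0.46) ended without the first (adjusted p 0.134) and the third (adjusted p 0.171) untreated array. In the amino acid stress response 6 of 22 were lower, 0 higher and the median was -0.031. Chac1, which degrades glutathione, Sesn2, a brake on mTORC1, and Trib3 fell by 0.71, 0.70 and 0.61, with SEs of 0.092, 0.083 and 0.099. Ppp1r15a, which restores translation after stress, fell from 7.65, 7.65 and 7.77 to 6.99, 7.14 and 7.07, and Atf4, the factor at the head of this response, by only 0.24 (SE 0.056). The call of Atf4 ended after centring arrays on their median and against the 30 min arrays. That of Atf3 (-0.44) ended without the second untreated array (adjusted p 0.159). After centring, 4 of the 22 were called lower and 11 changes were below 0, against 15 before. In the unfolded protein response 1 of 20 was lower, or 5%, against 2.87% of all genes. It was Herpud1, from 9.95, 9.94 and 9.88 to 9.47, 9.53 and 9.45.

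Cholesterol synthesis and efflux gave 5 of 20 lower and 0 higher, with a median of -0.15. Stard4, a carrier of cholesterol between membranes, read 7.15, 7.15 and 7.27 and then 6.30, 6.52 and 6.53, a change of -0.74 (SE 0.097, adjusted p 1.15e-05), and Mylip, which marks the LDL receptor for degradation, fell by 0.31 (SE 0.066). The enzymes Mvd (-0.30), Cyp51 (-0.26) and Sqle (-0.23) lost their calls when an array was left out, with adjusted p of up to 0.122, 0.15 and 0.138, and 2 members were called without the second untreated array and 2 after centring. Fatty acid and triglyceride synthesis had 1 of 24 in each direction, 4.17% each, against 3.04% higher and 2.87% lower among all genes. The genes were Gpat4 and Pnpla3, and both calls ended when 1 array was left out (adjusted p up to 0.054 and 0.196). Among 17 genes of mitochondrial fatty acid oxidation and 18 thermogenic genes 0 were called by limma, 2 and 7 had an unadjusted p below 0.05, and 0 and 2 were called with array weights. Of these, Slc25a20, the carnitine carrier, went from a mean of 7.60 to 7.91 (adjusted p 0.0992), and Ucp1, the uncoupling protein of brown fat, was dim at 2.78 and 2.80.

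Clock genes had 4 of 17 lower and 2 higher, with a median of -0.20. Per1, a repressor of the clock that glucocorticoids and cAMP induce, read 7.59, 7.83 and 7.65 and then 6.82, 6.75 and 6.85, a change of -0.89 (SE 0.12, adjusted p 1.28e-05). Nfil3, a repressor in the clock's output, read 7.05, 7.07 and 7.11 and then 6.15, 6.42 and 6.39, and Ciart, a further repressor, read 6.73, 6.83 and 6.85 and then 6.14, 6.27 and 6.07, with changes of -0.75 (SE 0.081) and -0.64 (SE 0.11). Per2 fell by 0.43 (SE 0.094). Clock and Npas2, the activators of the same loop, rose by 0.37 and 0.44, but these calls ended without the second (adjusted p 0.169) and the first (adjusted p 0.0862) untreated array. Glucocorticoid-responsive genes, which partly share members with these lists, had 6 of 16 lower and 2 higher, with a median of -0.11, and 2 lower without the first untreated array.

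Genes of the cell cycle and of p53 had 6 of 20 lower and 0 higher, with a median of -0.11. In a fit without replicate 3 of every group, 2 were called lower. The cyclin-dependent kinase inhibitors Cdkn1b and Cdkn2b fell, from 9.25, 9.20 and 9.31 to 8.75, 8.79 and 8.68 and from 8.07, 8.07 and 8.13 to 7.65, 7.36 and 7.33, by -0.51 (SE 0.061) and -0.64 (SE 0.073). Trp53inp1, an effector of p53, fell by 0.94 (SE 0.16), a call that ended in the fit without replicate 3 of every group. The call of Cdkn1c (-0.27) ended without the third untreated array (adjusted p 0.254). Among factors of mRNA decay and antiproliferative proteins of the BTG and TOB family, 4 of 21 were lower and 1 higher, with a median of 0.052. Zfp36l1 and Zfp36l2, which bind AU-rich elements and hasten the loss of short-lived messengers, fell from 8.43, 8.55 and 8.54 to 7.68, 7.65 and 7.47 and from 9.72, 9.89 and 9.85 to 9.04, 8.92 and 8.86, by -0.90 (SE 0.081) and -0.88 (SE 0.074). Their relative Zfp36 (-0.34) lost its call without the second 2 h array (adjusted p 0.187), and the rise of Tob2 (0.33) ended without the first untreated array (adjusted p 0.257).

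Of 31 genes of the extracellular matrix 4 were lower and 0 higher, against 2.87% and 3.04% of all genes. The median was -0.074. Adamts1, a protease of proteoglycans, read 8.44, 8.55 and 8.62 and then 7.28, 7.06 and 6.95, a change of -1.44 (SE 0.11, adjusted p 4.41e-09), and its relative Adamts5 read 8.70, 8.62 and 8.58 and then 7.97, 8.03 and 7.71, a change of -0.73 (SE 0.093). Has2, which makes hyaluronan, read 8.34, 8.22 and 8.30 and then 7.23, 7.12 and 7.28, a change of -1.07 (SE 0.12). The call of Mmp14 (-0.20) ended without the second untreated array (adjusted p 0.279). Among growth factors Fgf7 and Fgf10, ligands of the same FGF receptor isoform, were the 2 of 27 called lower, by -0.85 (SE 0.14) and -0.36 (SE 0.082), with 0 higher. Socs2 (-0.27) was the only 1 of 10 cytokine signal inhibitors called, and not without the first untreated array (adjusted p 0.186). Mrtfb (-0.33), a cofactor of serum response factor, was the only 1 of 22 actin and SRF target genes called, and not without the second 2 h array (adjusted p 0.156).

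Secreted adipocyte proteins had 3 of 17 lower and 0 higher, with a median of -0.044. Leptin (Lep), the hormone of fat stores, had a change of -1.19 (SE 0.24), from 6.02, 5.55 and 5.25 to 4.61, 4.20 and 4.46. Apln, a peptide hormone induced by insulin, fell from 9.29, 9.21 and 9.03 to 8.82, 8.75 and 8.80, by -0.39 (SE 0.065), and Angptl8, an inhibitor of lipoprotein lipase, by -0.63 (SE 0.12), although Angptl8 was not called against the 30 min arrays. Adiponectin (Adipoq) stood at 11.91 and 11.94. Among 22 genes of lipolysis, cAMP signalling and adipocyte receptors, 5 were lower and 1 higher. Rgs2, which shortens G-protein signals, read 10.54, 10.36 and 10.36 and then 9.84, 9.61 and 9.70, a change of -0.70 (SE 0.083, adjusted p 2.7e-06). Pde4b, a phosphodiesterase that breaks down cAMP, and Sik1, a kinase induced by cAMP, fell by 0.61 (SE 0.1) and 0.54 (SE 0.091), and Ffar4, a fatty acid receptor, by 0.42 (SE 0.09), while the lactate receptor Hcar1, which restrains lipolysis, rose from a mean of 8.45 to 8.92, by 0.47 (SE 0.086). Of 14 reference genes 0 were called by limma, 4 had an unadjusted p below 0.05 and 2 were called with array weights. Gapdh stood at 12.86 and 12.82, Actb at 12.26 and 12.10 and Tbp at 7.33 and 7.48.

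The array also carried probe sets for 306 genes with miRNA symbols, of which 278 were in the RefSeq miRNA table. The 306 include host transcripts such as Mir99ahg. Among them 7 were called higher and 7 lower, 4.58% in all, against 5.91% of all genes. These probe sets read the gene region and not the mature miRNA, and most were dim, with a median level of 3.09. Of the 1110 calls, only 163 lay at or below the median mean level of 4.76, so these shares do not compare genes of like level. The miRNA genes other than Mir378a and Mir99a, and Tmem245, were named after their values were seen. Mir378a, which RefSeq places inside Ppargc1b, rose from 4.05, 4.20 and 3.93 to 5.15, 5.07 and 5.40. The change was 1.14 (SE 0.15, adjusted p 1.36e-05), and its host was also called higher at 2 h. At 1 h, however, Mir378a was called, at 1.04 (adjusted p 0.000299), and Ppargc1b was not, at 0.19 (adjusted p 0.453). Mir378a was not called at 2 h against the 30 min arrays. Mir32 lies inside Tmem245, and both rose: Mir32 from 2.87, 2.85 and 2.67 to 4.08, 3.47 and 3.73 and Tmem245 from 8.08, 7.94 and 7.99 to 8.62, 8.54 and 8.57. The change of Tmem245 was 0.57 and that of Mir32 0.96 (SE 0.27). The call of Mir32 ended without the first 2 h array (adjusted p 0.148). Changes of the genes that RefSeq places around other called miRNA genes are not given here, so these pairs do not stand for the rest.

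Genes of the let-7 family were called in both directions, and both called genes of the miR-99 family were lower. Their mature 5′ products are shown because the same let-7c product comes from a gene that rose and a gene that fell, and because a miR-99 gene lies beside the latter. Capitals mark the seed, bases 2 to 8, and the sequences are those of RefSeq (GRCm38.p6).
let-7c-5p (Mirlet7c-1 and Mirlet7c-2): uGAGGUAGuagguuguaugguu
let-7b-5p (Mirlet7b): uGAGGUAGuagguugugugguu
miR-99a-5p (Mir99a): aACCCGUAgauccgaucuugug
miR-99b-5p (Mir99b): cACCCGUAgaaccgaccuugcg

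The let-7 products share the seed GAGGUAG, and both miR-99 products share ACCCGUA. On chromosome 16, Mir99a and Mirlet7c-1 lie 656 bases apart and both fell: Mir99a from 7.02, 6.09 and 6.56 to 5.60, 5.30 and 5.33 and Mirlet7c-1 from 5.25, 4.25 and 4.69 to 4.12, 3.71 and 3.72. The untreated arrays of both were spread by about 1 unit, and both calls ended without the first untreated array (adjusted p 0.176 and 0.184). Mir99ahg, the Mir99a host gene by its symbol and picked after its values were seen, was at -0.23 and not called (adjusted p 0.304). Mir125b-2, further along chromosome 16, was dim at 2.21 and 2.22 and was not called (change 0.0036, adjusted p 0.992). On chromosome 15, Mirlet7c-2 and Mirlet7b lie 621 bases apart and both rose, by 0.38 (SE 0.097) and 0.54 (SE 0.13), from 5.09, 5.03 and 5.05 to 5.43, 5.55 and 5.35 and from 5.56, 5.50 and 5.57 to 5.96, 6.28 and 6.02. These calls ended without the second 2 h array (adjusted p 0.1 and 0.0725). Mir99b on chromosome 17 fell by 0.62 (SE 0.15), from a mean of 5.06 to 4.44, a call that also ended without that array (adjusted p 0.0767), and its neighbours Mirlet7e and Mir125a, at -0.19 and -0.23, were not called.

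The values at the other times were compared with the same untreated arrays, so they share their control with the 2 h values and are given side by side. Apart from a fixed panel, the genes followed were named for their change or p at 2 h, which favours large values at that time. Some genes that rose were already higher at 30 min: Rasl11b by 0.91, Slc25a25 by 0.63, Rasgef1b by 0.59 and Fzd5 by 0.58, all called there. By 6 h Rasgef1b stood at 1.23, Fzd5 at 0.52, Slc25a25 at 0.76 and Rasl11b at 0.41, and at 48 h Rasgef1b stood at 0.86 (adjusted p 1.39e-07) while Rasl11b was at -0.15 and Fzd5 at 0.021, both not called. Kcnh4 had its highest value at 2 h and stood at 0.74 at 1 h and 0.095 at 6 h (adjusted p 0.788). Sh2d3c was not called at 30 min, 1 h or 6 h but was called higher at 12 h, at 0.35 (adjusted p 0.0244). Traf5, at 0.65 at 1 h and 0.49 at 6 h, was not called from 24 h on. Pck1 went on from 1.45 to 1.78 at 6 h and 2.03 at 48 h.

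Ribosome biogenesis genes were not called at 1 h among the 6 followed, and 5 of these were called at 6 h: Rrs1 at 0.80, Heatr1 at 0.64, Rrp12 at 0.57, Nolc1 at 0.53 and Ddx21 at 0.47, whereas Wdr43 at 0.12 was not. At 24 h Ddx21 was called lower, at -0.25 (adjusted p 0.0173), and the other 5 were not called. Of the genes that fell, the values of Errfi1 after 1 h, 6 h and 48 h were -1.05, -1.63 and -1.37, and those of Dusp6 were -1.09, -1.03 and -1.21. Adamts1, Klf6 and Tlr4 were not called at 1 h but were called at 2 h and at every later time. Adm was at -0.88 at 1 h and -1.38 at 2 h, was not called at 6 h (-0.12), and was called higher at 48 h, at 1.22 (adjusted p 5.01e-06). Fosl2 and Jun likewise were at -0.87 and -0.56 at 2 h and at 0.70 and 0.56 at 48 h, where both were called higher. Has2 (-1.07 at 2 h) was not called at 6 h, with a value of -0.068, and reached -0.85 by 48 h. Pparg (-0.63 at 2 h) was still called lower after 6 h (-0.29) and 48 h (-0.30).

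**Figure D5:**
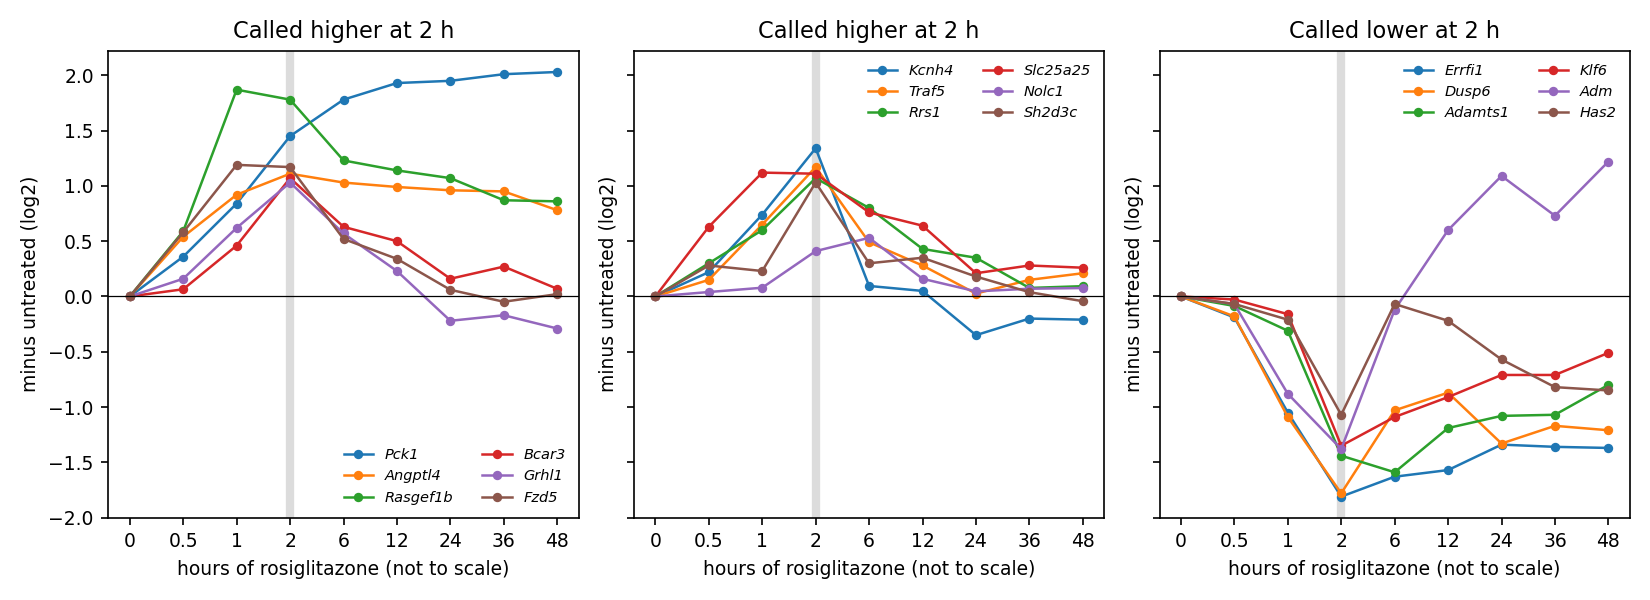
Change against untreated (log2, difference of the means of 3 arrays) of 18 genes at each time of rosiglitazone, with the hours spaced evenly and not to scale, and the 2 h value on the grey band. Kcnh4, Traf5 and Sh2d3c are highest at 2 h, Pck1 rises to 48 h, and Adm goes from -1.38 at 2 h to 1.22 at 48 h. The genes were named mostly for their 2 h values, which favours a peak there.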

How the data were processed

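RNA of 27 samples was hybridised to Affymetrix Mouse Gene 1.1 ST arrays. The authors deposited 1 log2 intensity for each probe set and array, and the submitters' processing notes name Partek and RMA without versions. Of 28815 probe sets, 21153 carried 1 gene symbol, and the brightest set of each gene was kept, giving 18781 genes, with no filter on dim genes. One linear model with a mean for each of 9 groups covered all 27 arrays (limma 3.58.1, lmFit and eBayes, under R 4.3.3). The contrast of 2 h minus untreated was tested two-sided with Benjamini-Hochberg adjustment over all genes, and genes were called below 0.05. The fit was tested on simulated data. The members and the 36 gene lists (891 entries, 64 not measured) were chosen with earlier results of these data known. Named genes were the 15 highest and 15 lowest called genes with groups that do not overlap, the 6 smallest p of each list and a fixed panel; others are said to be chosen later. Promoters and miRNAs came from RefSeq (GRCm38.p6). Array data hold no counts, and the number of arrays limits the precision. Software was pandas 2.3.3, numpy 2.4.6 and matplotlib 3.10.9 under Python 3.11.15.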

Additional observations from a re-analysis of the deposited data

Results flagged for a closer look

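The gene table leaves out probe sets without a symbol of their own. Fitted with all 28815 probe sets in limma, 171 of them were called at 2 h: 58 of the 1867 that carry several symbols and 113 of the 5795 that carry none, or 3.11% and 1.95%, against 4.98% of the probe sets with 1 symbol. They are given because they are signal outside the genes compared. The lowest was a set shared by Ccdc85b and Fosl1, which went from a mean of 8.38 to 6.81 (change -1.56, SE 0.16, adjusted p 8.68e-07). Its intensity cannot be assigned to either gene. The highest had no symbol and went from 5.61 to 6.76 (change 1.15, SE 0.2, adjusted p 0.00059).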

How the results depend on the processing

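The count of 1110 calls (571 higher, 539 lower) moved by over 1.5 times with array weights, to 1854 (932 and 922), and with a minimum change of 1.5-fold, to 21 (12 and 9), as that test asks for more. Leaving out 1 array, or 1 replicate number of every group, gave 448 to 883 calls, 225 to 460 higher and 223 to 423 lower, with fewer arrays in the fit. The lowest counts, 459 and 448, came without replicates 2 and 3 of every group, and the causes were not tested. Other settings stayed within 1.5 times. With the 30 min arrays as the control 970 genes were called, 670 of them among the 1110, and the change of Id3 turned to -0.46. Centring arrays on their median moved the share of calls that were higher from 51.4% to 59.9%. Of the 162 named genes called, 120 were called in each of the 6 fits without 1 array, and 86 there and in every other setting except the 1.5-fold minimum.

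Arrays with the same replicate number did not deviate together. The correlations of their deviations were -0.07, -0.09 and -0.05, against -0.01 to 0.08 for untreated and 2 h arrays with different numbers. Of the 27 arrays, 0 correlated best with their own number. Whether an effect of replicate number had been removed from the values before deposit was not tested. The more cautious count with the replicate block is therefore given too. With the replicate block 839 genes were called, 432 higher and 407 lower, all of them among the 1110. Of the calls, 163 lay at or below the median mean level of 4.76 and 947 above it.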
